A study of Solanum lycopersicum with 18 samples.

Results

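The comparison concerns heated leaves of CS2, a tomato line in which a hairpin RNA is meant to lower expression of the heat stress transcription factor HSFA1a, and of wild type (WT). It comprises 6 of the 18 RNA-seq libraries of the series, the 3 of CS2 and the 3 of WT taken after 1 h at 45 °C. They were chosen by the line and time in the names of the count columns, and the genes described are the 15312 of 35821 that reached 50 counts in 2 or more libraries of the series. All plants were Solanum lycopersicum cv. Moneymaker, 4 weeks old, grown at 24 °C under long days, and RNA came from the fourth leaf. CS2 and CS3, a second hairpin line, are each a single transgenic line, so that an effect of the hairpin cannot be told apart from other features of that line. The labels call the lines line1 and line2 and do not pair these names with CS2 and CS3. Plants kept at 24 °C (0 h) supplied a further 3 libraries of each line and of WT. The promoter that drives the hairpin is not given in the sources used here. Replicates are described as pools of randomly chosen plants, but the methods state fewer replicates than the 3 libraries labelled, so p-values measure the spread between these libraries, which may in part be technical.

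Heat stress factors of class A1 are the first activators of the heat shock response in tomato. On heating they are released from HSP70 and HSP90, bind heat shock elements in promoters and switch on HSFA2, class B factors and the genes of molecular chaperones. Small heat shock proteins hold unfolding proteins, HSP70 with its J proteins refolds them, and HSP101 (ClpB) pulls them out of aggregates.

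Total counts in the 6 libraries were between 1713285 and 3669618. CS2 replicate 1 was the shallowest and CS2 replicate 3 the deepest, while the WT libraries lay between 2087511 and 2393059. Expression is given as counts per 1e+06 counts (CPM) on library sizes adjusted by edgeR's TMM method. Pairs of CS2 replicates differed by 2.79 to 7.30 times the variance of sampling alone, and pairs of WT replicates by 1.56 to 2.94 times. Replicates 1 and 3 of CS2 were the least alike. Chloroplast genes took 0.135% to 0.419% of the counts in CS2 and 0.236% to 0.291% in WT. None of the 38 tested chloroplast genes and none of the 5 tested mitochondrial genes passed the threshold in edgeR's test. The mesophyll markers, 12 of 12 tested and none called (4 of 12, all higher, without CS2 replicate 3), summed to 3630 to 6679 CPM in CS2 and 4447 to 5002 CPM in WT. The CS2 sum was highest in the shallowest library, replicate 1, and lowest in the deepest, replicate 3. The part of depth and of the limit on counts described below for MTSHP was not tested. Glandular trichome markers, 4 tested of 7 with 1 called (TPS7, higher, and lost without CS2 replicate 3) and the synthase TPS3 at 0, summed to 188.2 to 201.1 CPM against 158.5 to 189.9 CPM. Epidermal markers, 2 tested of 3 with LE16 at 0, went in opposite directions, CER6 called higher and CD2 called lower. They summed to 369 to 459.8 CPM in CS2 and 272 to 306 CPM in WT. Markers of dividing cells, 5 tested of 9 with 1 called (PCNA, higher), summed to 102 to 113 CPM against 46.5 to 69.1 CPM. The only phloem marker, LeSUT1, is described below. The part of these shifts in the results was not tested, and in a bulk leaf sample fewer cells of a type and less RNA per cell cannot be told apart.

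After 1 h at 45 °C, 2729 of the 15312 genes were higher in CS2 than in WT and 2345 were lower. These are 17.8% and 15.3% of the genes. The test was the quasi-likelihood test of edgeR, and a gene was called at an adjusted p below 0.05. The median log2 fold change was 0.79 among the higher genes, -0.79 among the lower genes and 0.04 over all genes tested. A difference of over 1 on the log2 scale was seen for 933 higher and 774 lower genes, and of over 3 for 32 higher and 51 lower genes. All 3 CS2 libraries lay above all 3 WT libraries for 25.5% of the tested genes and below them for 22.8%. Among the called genes the libraries did not overlap for 2613 of the 2729 higher and 2270 of the 2345 lower genes. Without CS2 replicate 3, 2327 genes were higher and 2126 lower, and 2115 and 1999 of the genes called with all libraries were called again. A gene named alone is also compared by whether its libraries overlap, since an exact permutation test of 3 libraries against 3 cannot give a two-sided p below 0.1.

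**Figure D1:**
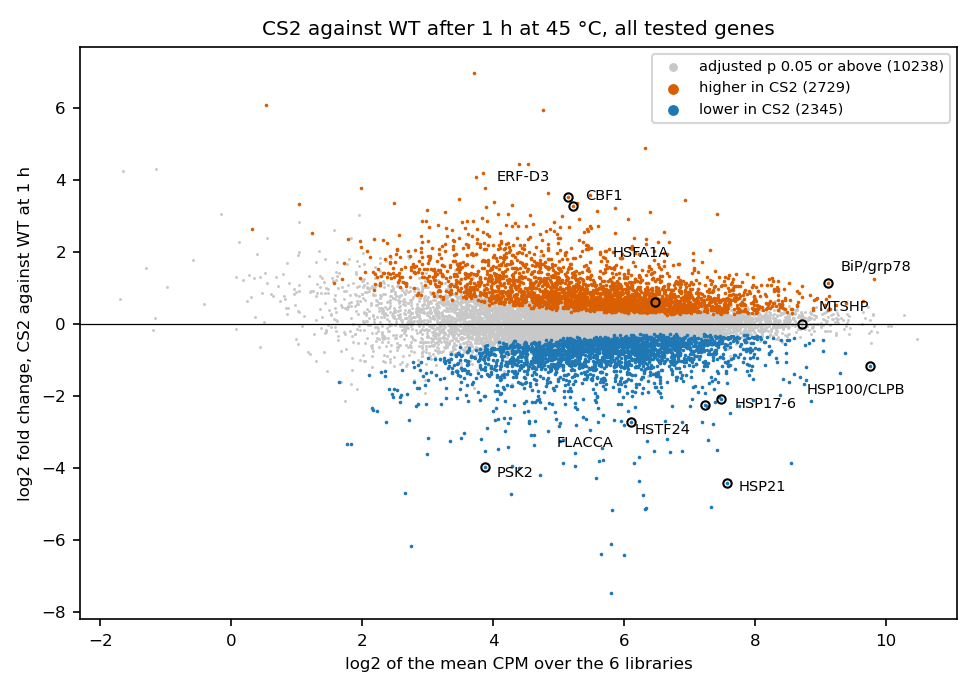
Each point is 1 of the 15312 tested genes, placed by the log2 of its mean CPM over the 6 libraries (horizontal) and its log2 fold change in CS2 against WT at 1 h (vertical). Orange points (2729) are higher and blue points (2345) lower in CS2 at an adjusted p under 0.05, grey points are the rest, and HSP21 at -4.42 lies far below most highly expressed genes, while MTSHP lies at 0.

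HSFA1a, the gene the hairpin targets, was examined first. It is Solyc08g005170.3 in the table (chr8:127049-132599, minus strand, M82 V1.0 assembly). At 1 h it stood at 86.9, 122 and 110.3 CPM in the libraries labelled CS2 and 78.1, 71.6 and 61.9 CPM in those labelled WT, replicates 1 to 3 in each case. All 3 libraries labelled CS2 were above all 3 labelled WT. The log2 fold change was 0.60 (standard error 0.158, adjusted p = 0.00672, edgeR), so a lower level of the targeted transcript is not seen in these counts. CS3 had a mean of 115.7 CPM at 1 h and a log2 fold change of 0.72 against WT. The difference between CS2 and CS3, -0.12, did not pass the threshold (adjusted p = 0.762, edgeR). The paper describes its hairpin lines as knock-down lines with lowered HSFA1a expression. At 0 h the ranges were 62.2 to 72.8 CPM in CS2, against 66.7 to 84.5 CPM in WT, which overlap. Reads of the hairpin itself may be counted on the gene, since counts per gene do not separate them. CS2 is therefore the name of a label here, and each direction below is between the libraries labelled CS2 and WT.

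Among the 4 heat stress factors matched by name, 3 were lower in CS2 and HSFA1a was higher. The largest difference was in HSTF24, the class B factor also called HsfB1, which works with class A factors in tomato (Solyc02g090820.3, chr2:52031596-52034946, minus strand). HSTF24 stood at 87.5, 33.3 and 40.3 CPM in CS2, against 250.5, 277 and 215 CPM in WT. Every CS2 library was well below every WT library, with replicate 1 the highest of the 3 CS2 libraries. Its log2 fold change was -2.26 (standard error 0.293, adjusted p = 1.38e-05, edgeR), a 4.79-fold lower level. CS3 was at 163, 241 and 179 CPM, and CS2 was lower than CS3 too (log2 fold change -1.91, adjusted p = 0.00182, edgeR).

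HSFA3, a factor that acts late in the heat response of Arabidopsis, was at 257, 208 and 194 CPM in CS2, against 412, 497 and 349 CPM in WT. The groups did not overlap, and the log2 fold change was -0.94 (adjusted p = 0.00335, edgeR). CS3 was as low, at 194, 218 and 182 CPM, and the difference of 0.15 between the lines did not pass the threshold (adjusted p = 0.797, edgeR). HSFA2, the main amplifier of the response once it has begun, was at 462, 319 and 259 CPM in CS2, against 532, 584 and 434 CPM in WT. CS2 replicate 1 reached into the WT range. Its log2 fold change of -0.58 (adjusted p = 0.0302, edgeR) lost the threshold without CS2 replicate 2 or 3 or WT replicate 1 or 2 (adjusted p from 0.0783 to 0.135).

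HSP21, the small heat shock protein of the chloroplast, had the largest fall of any gene with a symbol (Solyc03g082420.3, chr3:48385205-48386291, minus strand). It stood at 38.1, 8.33 and 10.2 CPM in CS2 against 378, 380.0 and 319.9 CPM in WT. Even the highest CS2 library was far below the lowest WT library, and those of CS3 lay between, at 169.9, 267 and 145 CPM. The log2 fold change between CS2 and WT was -4.42 (standard error 0.457, adjusted p = 1.3e-06, edgeR), a 21.4-fold lower level, and between CS2 and CS3 it was -3.53 (adjusted p = 0.000398, edgeR). At 0 h, before heat, HSP21 was at 2.82 to 5.72 CPM in CS2, against 3.87 to 6.26 CPM in WT, which overlap. With single libraries left out, the 1 h value stayed between -5.26 and -4.04.

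The 3 tested members of the list of cytosolic small heat shock proteins come from a cluster on chromosome 6, and all 3 were lower in CS2. HSP17-6 (Solyc06g076560.2, chr6:50224899-50225744, plus strand) stood at 142, 36.3 and 34.02 CPM in CS2, against 298, 296 and 259 CPM in WT. Replicate 1 of CS2 was near 4 times the level of the other CS2 libraries but still below WT. HSP17-6 was lower by the fit, at -2.10 on the log2 scale (standard error 0.366, adjusted p = 0.000254, edgeR). HSP17.8 (Solyc06g076520.1) was at 134, 37.2 and 27.8 CPM against 211, 215 and 184 CPM, a log2 fold change of -1.72 (adjusted p = 0.00122, edgeR). Hsp20.0 (Solyc06g076570.4) was at 200.5, 76.5 and 59.8 CPM against 280.5, 277 and 240.0 CPM, a log2 fold change of -1.30 (adjusted p = 0.00542, edgeR). In both genes the groups did not overlap and replicate 1 was again the CS2 library nearest to WT. Without that replicate the fold changes of the 3 genes grew, to -3.04, -2.69 and -1.99, and without replicate 2 or 3 they shrank, at most to -1.72, -1.29 and -0.96. Against CS3, HSP17-6 was lower at a log2 fold change of -1.98 (adjusted p = 0.00658) and HSP17.8 at -1.59 (adjusted p = 0.0227), while the value of Hsp20.0, -1.23, missed the threshold (adjusted p = 0.0552, all from edgeR). The highest counts of HSP17-6, HSP17.8 and Hsp20.0 were 0.699, 0.912 and 0.958 of the gene's length, and that of HSP21 was 0.688, so that WT stood near the ceiling of the counting described for MTSHP. The part of this ceiling in the differences was not tested. The fourth matched member, HSP20-1, had 0 counts in every CS2 and WT library at 1 h. Cluster members resemble each other in sequence, and reads that fit several of them equally well may have been lost at the limit on mapping quality.

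MTSHP, the small heat shock protein of mitochondria, did not pass the threshold. It was at 571, 432 and 266 CPM in CS2, against 439.8, 450.1 and 369.9 CPM in WT, with CS2 replicates on both sides of the WT range. The fit put MTSHP at 0.00 on the log2 scale (standard error 0.278, adjusted p = 0.997, edgeR). These values are close to what the counting can resolve. Because reads that start at the same position were removed as duplicates, a gene can hold at most about as many counts as its length in bases. Lengths here are those of the whole gene span. In genes with introns the limit for spliced reads is lower, so shares of the length can understate how near it is. The counts of MTSHP were 855, 882 and 937 in CS2 and 850, 886 and 843 in WT, on a gene of 1313 bases, and hardly rose between a library of 1713285 and one of 3669618 counts. Its CPM was therefore lowest in the deepest library, and a difference in MTSHP would be hard to see. Of the tested genes, 1069 reached 0.3 of their length in some library, and 224 of these were higher and 119 lower in CS2. The share higher was above the 17.8% of all tested genes and the share lower was below their 15.3%. The cause was not tested.

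The HSP70 and HSP90 genes were measured under the same limit, and none of 5 passed the threshold with all libraries. Hsc70.1, a cytosolic HSP70, stood at 1225, 870.5 and 599.7 CPM in CS2, against 839.8, 934 and 709 CPM in WT, from counts of 1833, 1776 and 2115 in CS2 and 1623, 1839 and 1615 in WT. CS2 lay on both sides of WT, the shallowest library highest and the deepest lowest. Its fitted log2 fold change was 0.11 (adjusted p = 0.855, edgeR). Hsc70.2 and hsc70.3 gave 0.02 (adjusted p = 0.957) and -0.26 (adjusted p = 0.485), with CS2 at 485 to 896 and 519 to 1095 CPM and WT at 554 to 798 and 832 to 1005 CPM. The HSP90 genes HSC80 and Hsp90-1 gave 0.01 (adjusted p = 0.972) and 0.33 (adjusted p = 0.173, edgeR for all 4). Their highest counts were 0.571 and 0.731 of the gene's length. Without CS2 replicate 3 Hsp90-1 passed the threshold (adjusted p = 0.0207, edgeR). The part of the ceiling in the values of the 5 genes was not tested.

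**Figure D2:**
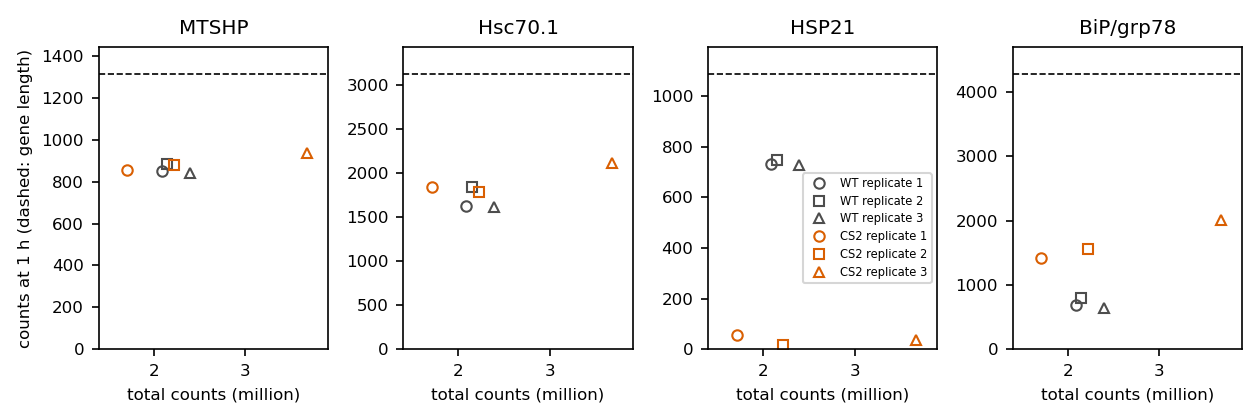
Raw counts at 1 h (vertical) of MTSHP, Hsc70.1, HSP21 and BiP/grp78 against the total counts of the library in units of 1e+06 (horizontal), for the 3 CS2 (orange) and 3 WT (grey) libraries, with the gene's length as a dashed line. MTSHP held 843 to 937 counts at every depth, whereas HSP21 fell from 729 to 748 counts in WT to 17 to 57 in CS2, and BiP/grp78 was higher in every CS2 library.

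Of 3 tested Clp proteins 1 was lower. HSP100/CLPB, the disaggregase HSP101 (Solyc02g088610.4, chr2:50381716-50388829, minus strand), was at 803, 417 and 372 CPM in CS2, against 1184, 1329 and 1052 CPM in WT. The groups did not overlap, and the log2 fold change was -1.17 (standard error 0.22, adjusted p = 0.000477, edgeR). CS3 stood at 1058, 1286 and 888 CPM, and CS2 was lower than CS3 (log2 fold change -1.03, adjusted p = 0.0162, edgeR). The other 2 tested Clp proteins did not pass the threshold, nor did the only tested J protein, DNAJ (log2 fold change 0.12, adjusted p = 0.743, edgeR).

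Of 16 FKBP and cyclophilin immunophilins, peptidyl-prolyl isomerases of which some assist HSP90, 3 were lower and 1 was higher. The share lower was near the 15.3% of all tested genes, and the share higher was below the 17.8% of all tested genes. FKBP65, whose Arabidopsis relative is heat-induced, was at 298, 123 and 115 CPM in CS2, against 513, 578 and 433 CPM in WT. Its log2 fold change was -1.53 against WT (adjusted p = 0.000975) and -1.53 against CS3 (adjusted p = 0.0127, edgeR). FKBP42, known in Arabidopsis as TWISTED DWARF1 and a guide of auxin transporters to the membrane, was at 108, 72.05 and 76.8 CPM against 204, 173 and 157 CPM. No CS2 library of either gene reached the WT range. The log2 fold change of FKBP42 was -1.07 against WT (adjusted p = 6.22e-05) and -0.79 against CS3 (adjusted p = 0.0127, edgeR). FKBP62C was lower (log2 fold change -0.47, adjusted p = 0.0143) and FKBP53 was higher by 0.82 (adjusted p = 0.0283, edgeR). The call of FKBP62C was lost without WT replicate 1 or 3 (adjusted p of 0.0585 and 0.0573), and that of FKBP53 without CS2 replicate 2 or 3 or WT replicate 2 (adjusted p from 0.0617 to 0.128).

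The chloroplast protease gene ftsH6 was also lower. FtsH6 is known in Arabidopsis to degrade HSP21 during recovery from heat. Its level was 271, 122 and 128 CPM in CS2, against 770.0, 809 and 671 CPM in WT. All CS2 libraries were below WT, with replicate 1 the highest of them, and CS3 was between at 479, 539.9 and 329.9 CPM. The log2 fold change was -2.13 against WT (standard error 0.292, adjusted p = 2.38e-05) and -1.39 against CS3 (adjusted p = 0.0133, edgeR). GolS2, a galactinol synthase at the entry to the raffinose sugars that protect cells under stress, was at 40.8, 16.7 and 20.7 CPM against 68.8, 101 and 41.7 CPM. Its log2 fold change was -1.47 (adjusted p = 0.00266, edgeR). ER24, a coactivator of the MBF1 family, rose with heat in WT by a log2 value of 4.33 (adjusted p = 4.82e-10) and was at 164 to 374 CPM in CS2, against 243 to 298 CPM in WT at 1 h (log2 fold change -0.08, adjusted p = 0.811, edgeR). Its counts reached 0.654 of the gene's length.

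BiP/grp78, the only tested member of its list, was higher in CS2. This HSP70 of the endoplasmic reticulum, also a marker of the unfolded protein response (Solyc08g082820.4, chr8:66344537-66348811, plus strand), stood at 943, 761 and 570.2 CPM in CS2, against 356, 403 and 279 CPM in WT. Even the lowest CS2 library was above the highest WT library. Among the CS2 libraries its CPM fell as depth rose, and the part of the counting limit described for MTSHP was not tested. The log2 fold change was 1.13 (standard error 0.184, adjusted p = 0.000134, edgeR), and between 0.92 and 1.30 with single libraries left out. CS3 was at 568, 538 and 607 CPM, from which CS2 did not differ past the threshold (0.40, adjusted p = 0.265, edgeR). At 0 h BiP/grp78 was at 166 to 189 CPM in CS2, against 138 to 193 CPM in WT. The chaperonin CPN21 of the chloroplast was at 203 to 372 CPM in CS2, against 347 to 404 CPM in WT, with a log2 fold change of -0.45 short of the threshold (adjusted p = 0.0656, edgeR).

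**Figure D3:**
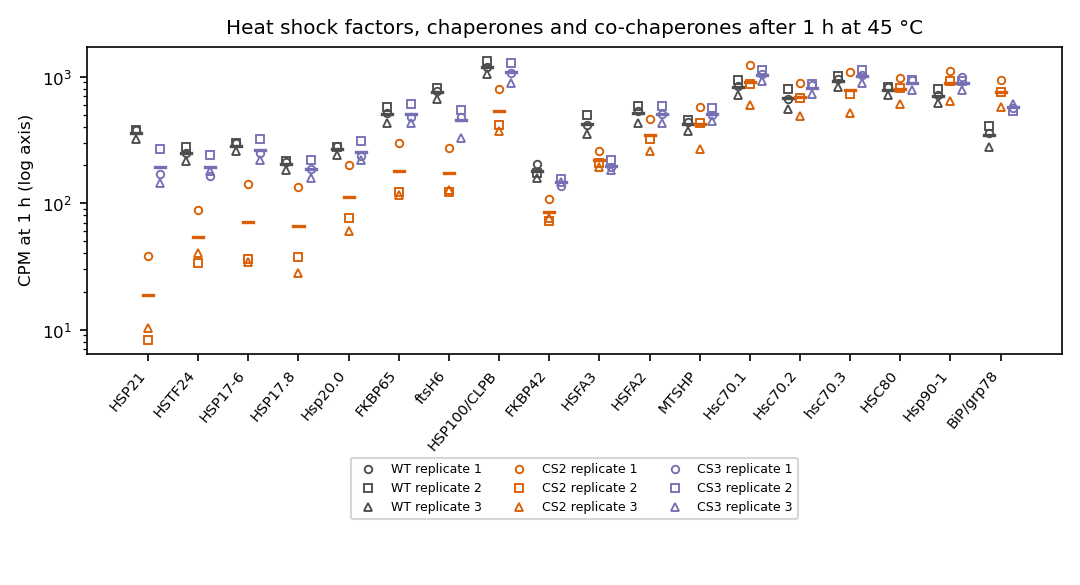
CPM at 1 h on a log axis for 18 heat shock factors, chaperones and co-chaperones, with the 3 libraries of WT (grey), CS2 (orange) and CS3 (purple) as points and their means as bars. From HSP21 to FKBP42 and in HSFA3 every CS2 library lies below every WT library, from MTSHP to Hsp90-1 the groups overlap, and BiP/grp78 is higher in CS2.

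Genes that the study draws at its heat-response loci were read next, by identifier, since no symbol is paired with them. Solyc01g091270.3 (M82, chr1:79069197-79072106, minus strand) was at 92.2, 51.95 and 39.4 CPM in CS2, against 353, 343 and 293 CPM in WT. Its log2 fold change was -2.49 (standard error 0.224, adjusted p = 2.84e-07, edgeR). The gene beside it, Solyc01g091260.3 (chr1:79064514-79068758, minus strand), was at 496, 372 and 292 CPM in CS2, against 365, 382 and 314 CPM in WT, with groups that overlap and a log2 fold change of 0.12 (adjusted p = 0.736, edgeR). On chromosome 9, Solyc09g015010.2 was at 239, 183 and 193 CPM against 666, 788 and 507 CPM, a log2 fold change of -1.68 (adjusted p = 5.59e-05, edgeR). Its neighbour Solyc09g015000.4 gave -0.94 (adjusted p = 0.0175, edgeR), a call lost without CS2 replicate 2 or 3 or WT replicate 1 (adjusted p from 0.051 to 0.0936). Solyc09g074475.1 was lower than in CS3 as well (log2 fold change -2.44, adjusted p = 0.00131, edgeR), where it stood at 37.6, 75.1 and 53.4 CPM against 12.7, 9.80 and 8.79 CPM in CS2. Solyc06g076510.3, which lies beside the cluster of small heat shock protein genes, was higher in CS2, at 29.4, 32.4 and 35.2 CPM against 13.97, 20.8 and 14.04 CPM (log2 fold change 1.00, adjusted p = 0.000472, edgeR).

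Known functions beyond the heat shock response were followed in lists of genes by symbol. Each list is read against the 17.8% of all tested genes that were higher and the 15.3% that were lower. Jasmonate genes were higher in 5 of 9, WRKY factors in 3 of 7, ERF/DREB factors in 8 of 19, expansins and xyloglucan endotransglucosylases in 6 of 15 and receptor-like kinases in 5 of 12 (3 of 12 without CS2 replicate 3). Ethylene genes were lower in 6 of 16, abscisic acid genes in 3 of 6 and calcium sensors in 4 of 13. Calcium sensors were also higher in 2 of 13, and without CS2 replicate 3 they were higher in 4 and lower in 3. Aquaporins (8 tested), cytosolic ribosomal proteins (4) and glutathione S-transferases (3) had no called member, although PIP1-5 of the aquaporins passed the threshold without CS2 replicate 3 (adjusted p = 0.0212, edgeR). The shares of auxin genes (7 higher and 3 lower of 30) and cytochromes P450 (4 and 3 of 16) were near those of all genes, and without CS2 replicate 3 they were 6 and 1 of 30 and 2 and 2 of 16. The median log2 fold change over tested members was 0.41 for jasmonate, 0.40 for ERF/DREB factors, 0.56 for the cell wall list, -0.31 for ethylene, -0.65 for abscisic acid and -0.24 for calcium sensors, beside 0.04 for all tested genes. Many members were too low to test, such as 30 of 49 matched ERF/DREB genes.

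**Figure D4:**
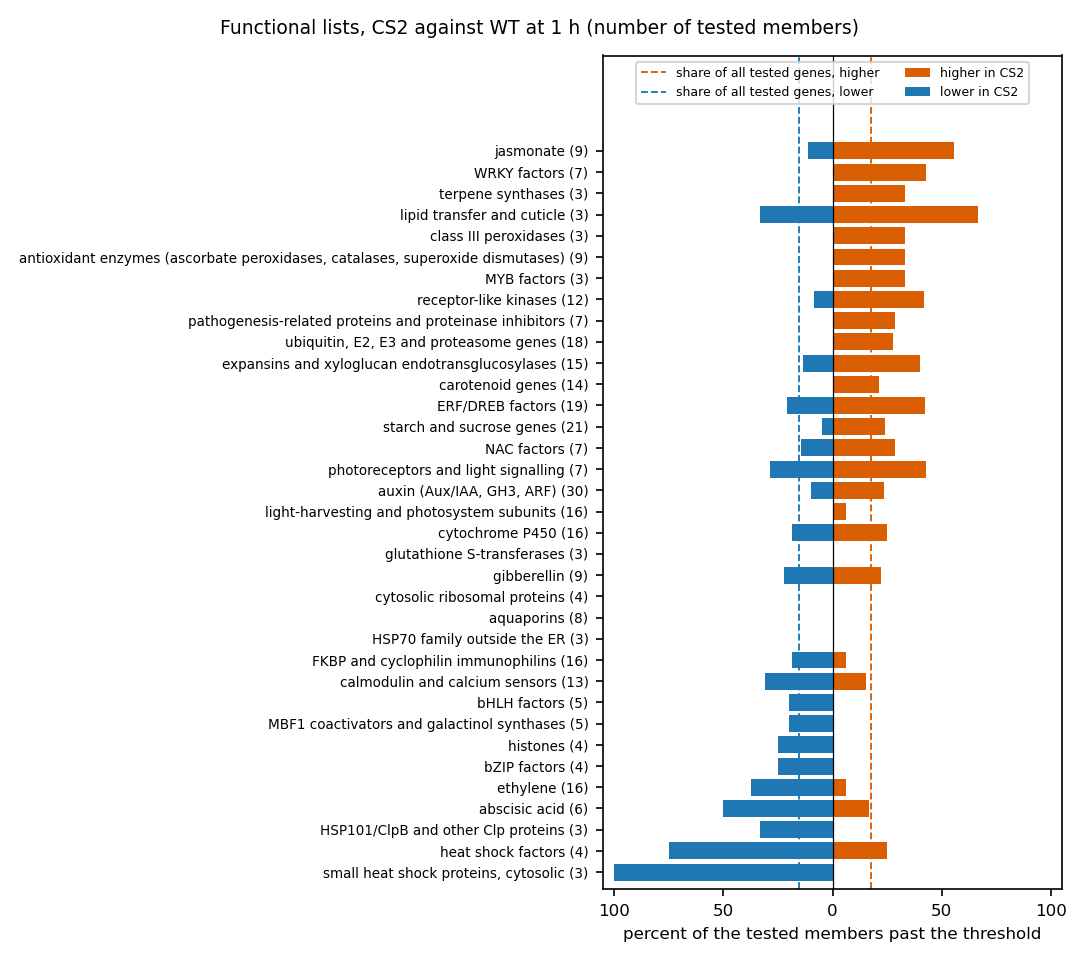
Percent of the tested members of each list that were higher (orange, to the right) or lower (blue, to the left) in CS2 than in WT at 1 h at an adjusted p under 0.05, with the number of tested members in parentheses. Dashed lines give the same shares over all tested genes, 17.8% higher and 15.3% lower, and lists with few members move in large steps.

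Of 6 abscisic acid genes 3, all of synthesis, were lower in CS2 and 1 was higher. FLACCA encodes the sulfurase that activates the molybdenum cofactor of aldehyde oxidase, the last enzyme of the pathway (Solyc07g066480.3, chr7:68304855-68317098, minus strand). It stood at 26.7, 15.7 and 14.5 CPM in CS2, against 143, 84.8 and 129 CPM in WT, every CS2 library well below every WT library. FLACCA was lower at -2.71 on the log2 scale (standard error 0.361, adjusted p = 1.8e-05, edgeR), with 19.1, 39.99 and 31.03 CPM in CS3. TAO2, an aldehyde oxidase, was at 49.5, 42.1 and 49.9 CPM against 74, 74.7 and 95.7 CPM, with a log2 fold change of -0.79 (adjusted p = 0.000495, edgeR). NCED1, the dioxygenase that cleaves the carotenoid precursor, was at 212, 118 and 117 CPM against 308, 211 and 317 CPM. CS2 replicate 1 and WT replicate 2 lay at the same level, and the log2 fold change was -0.93 (adjusted p = 0.00508, edgeR). CYP707A2, which breaks abscisic acid down, was the only member that was higher, by 1.21 (adjusted p = 0.0121, edgeR), from 49.5, 88.2 and 91.3 CPM in CS2, against 57.4, 17.3 and 25.9 CPM in WT. Those groups overlap, and the call was lost without CS2 replicate 3 or WT replicate 2 or 3 (adjusted p from 0.0559 to 0.065).

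Of 16 ethylene genes 6 were lower and 1 was higher. The receptor ETR4 stood at 21.4, 26.5 and 30.3 CPM in CS2, against 66.8, 62.99 and 56.6 CPM in WT, with a log2 fold change of -1.22 (adjusted p = 0.00514, edgeR). The receptor ETR1 was at 37.4, 39.2 and 38.6 CPM against 65.2, 54.4 and 58.8 CPM, and EIL2, a transcription factor that carries the ethylene signal to promoters, at 106, 89.2 and 93.8 CPM against 144, 182 and 129 CPM. Neither gene had overlapping groups, and their log2 fold changes were -0.63 (adjusted p = 0.000843) and -0.66 (adjusted p = 0.00136, edgeR). The other lower members ETR2, EIL3 and TCTR2, a CTR1-like kinase, had smaller falls of -0.41, -0.63 and -0.44 (adjusted p = 0.0437, 0.0153 and 0.0219, edgeR). Their calls depended on single libraries. EIL3 was lost without CS2 replicate 2 or 3 (adjusted p of 0.0784 and 0.0636), TCTR2 without CS2 replicate 2 or WT replicate 1 or 3 (0.0583 to 0.079) and ETR2 without CS2 replicate 1 or 2 or WT replicate 1 or 3 (0.0956 to 0.156). ETR2 was also lost in DESeq2 (adjusted p = 0.0705) and under other scalings. ACO3, an ACC oxidase that makes ethylene, was higher, at 70.2, 75.5 and 65.2 CPM against 30.01, 34.03 and 27.2 CPM (log2 fold change 1.21, adjusted p = 0.000265, edgeR). The receptors ETR5 and ETR7, the kinases CTR1 and CTR4 and the F-box gene EBF1 did not pass the threshold (adjusted p from 0.123 to 0.919, edgeR).

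Of 9 jasmonate genes 5 were higher and 1 was lower, and loxC, OPR3 and SLJAZ3 did not pass the threshold (adjusted p from 0.246 to 0.886, edgeR). JAZ2, a repressor of jasmonate responses, was at 72.2, 46.6 and 51.6 CPM in CS2, against 22.8, 16.8 and 21.1 CPM in WT. Every CS2 library was above every WT library, with a log2 fold change of 1.47 (adjusted p = 0.000461, edgeR). MYC2, the activator that JAZ proteins bind, was at 232, 188 and 173 CPM against 329, 303 and 312 CPM, a log2 fold change of -0.68 (adjusted p = 0.00246, edgeR). The synthesis genes loxD, AOC and Acx1A were higher by 0.67, 0.51 and 0.41 (adjusted p = 0.0405, 0.0165 and 0.0306), and the receptor COI1 by 0.43 (adjusted p = 0.0133, edgeR). CS2 replicate 1 was the highest library for the 3 synthesis genes, and without it none of their calls held (adjusted p from 0.128 to 0.261). Without WT replicate 1 they were also lost (0.0521 to 0.133), as were loxD without WT replicate 2 (0.136), Acx1A without WT replicate 3 (0.0597) and COI1 without CS2 replicate 2 or WT replicate 3 (0.0572 and 0.0665).

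Of 30 genes in the auxin list 7 were higher and 3 lower. IAA2, a repressor of auxin-responsive transcription that auxin itself induces, stood at 76.8, 74.5 and 68.3 CPM in CS2, against 21.7, 14.7 and 14.5 CPM in WT. The lowest CS2 library was more than 3 times the highest WT library, and CS3 was at 74.1, 80.6 and 80.3 CPM. IAA2 thus was higher at 2.11 on the log2 scale (standard error 0.246, adjusted p = 4.78e-06, edgeR). IAA8 and IAA7 of the same family were higher by 1.11 (adjusted p = 0.00011) and 0.76 (adjusted p = 0.00565, edgeR). FZY4 and FZY6, flavin monooxygenases of the family that makes auxin, were higher by 1.67 (adjusted p = 4.2e-05) and 1.81 (adjusted p = 0.000502, edgeR). FZY4 was at 34.8, 45.1 and 43.4 CPM against 15.01, 10.2 and 13.6 CPM and FZY6 at 22.7, 28.4 and 32.9 CPM against 5.17, 10.2 and 8.78 CPM, with no overlap in either. GH3-8, of the family that conjugates auxin to amino acids, was lower, at 12.03, 11.3 and 14.2 CPM against 44.5, 24.4 and 41.7 CPM (log2 fold change -1.53, adjusted p = 0.000203, edgeR). The other lower members were IAA19 (-0.70, adjusted p = 0.0163) and GH3-15 (-0.72, adjusted p = 0.045, edgeR). IAA19 lost the threshold without CS2 replicate 2 or 3 or WT replicate 2 (adjusted p from 0.0556 to 0.0643). The call of GH3-15 was lost without any 1 of the 6 libraries (adjusted p from 0.0506 to 0.124).

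Of 9 gibberellin genes, 2 were higher and 2 lower. Both shares are near those of all tested genes, 17.8% higher and 15.3% lower. GA20OX1, a 20-oxidase of gibberellin synthesis, was at 40.8, 65.2 and 60.96 CPM in CS2, against 163, 118 and 128 CPM in WT. The groups did not overlap, and CS2 was lower than WT (log2 fold change -1.27, adjusted p = 0.000961) and lower than CS3 (-1.07, adjusted p = 0.0337, edgeR). The next enzyme, the 3-oxidase 3OH-2, was higher, at 13.4, 12.7 and 15.03 CPM against 3.62, 4.06 and 4.39 CPM (log2 fold change 1.76, adjusted p = 0.00454, edgeR). SPY, a glycosyltransferase that restrains gibberellin responses, was lower (log2 fold change -0.48, adjusted p = 0.00186, edgeR). GID2, an F-box protein of the same pathway, was higher by 0.49 (adjusted p = 0.0306, edgeR), a call lost without CS2 replicate 1 or 2 or WT replicate 1 or 3 (adjusted p from 0.114 to 0.141).

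**Figure D5:**
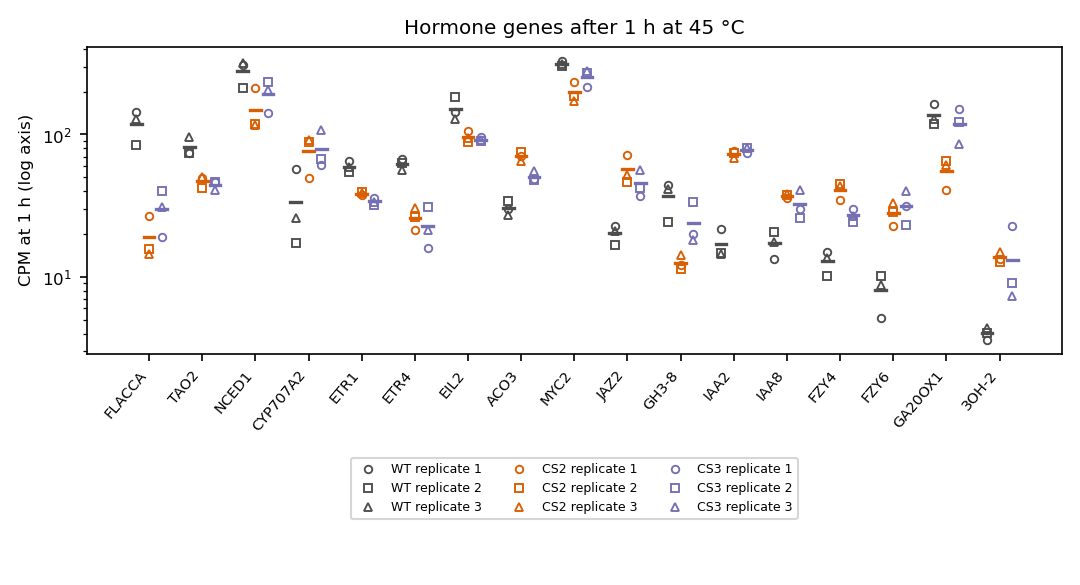
CPM at 1 h on a log axis for 17 genes of abscisic acid, ethylene, jasmonate, auxin and gibberellin, with the 3 libraries of WT (grey), CS2 (orange) and CS3 (purple) as points and their means as bars. FLACCA, ETR4 and GH3-8 lie lower and IAA2, FZY6 and 3OH-2 higher in every CS2 library than in every WT library, and CYP707A2 and NCED1 overlap.

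Among transcription factors, CBF1 and ERF-D3 had the largest rises of any gene with a symbol. CBF1, a DREB factor best known for cold responses (Solyc03g026280.3, chr3:3682758-3683654, plus strand), was at 70.8, 70.1 and 60.96 CPM in CS2, against 9.83, 6.10 and 4.83 CPM in WT. All CS2 libraries were over 6 times the highest WT library, and CS3 was at 89.5, 81.2 and 140.5 CPM. CBF1 was higher at 3.29 on the log2 scale (standard error 0.303, adjusted p = 3.66e-07, edgeR). Its neighbour Solyc03g026270.3 just before it on the same strand was at 40.8, 25.5 and 26.9 CPM in CS2 against 10.9, 3.56 and 4.83 CPM in WT. ERF-D3 was at 88.2, 52.4 and 53.9 CPM against 7.25, 5.08 and 4.39 CPM, a log2 fold change of 3.53 (adjusted p = 1.4e-06, edgeR). Further members that were higher were ERF-H6 (2.32), ERF-B13 (2.23), DREB2 (0.85) and ERF36 (0.64), with adjusted p-values of 0.00213, 0.000415, 0.00186 and 0.0049 from edgeR. ERF-H6 rests on low levels, 5.88 to 7.66 CPM against 0.517 to 2.03 CPM.

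The 4 lower members of that list were EREB, JRE4, DDTFR10A and PTI4. EREB was at 11.4, 5.39 and 10.2 CPM in CS2, against 52.8, 37.6 and 32.5 CPM in WT (log2 fold change -2.18, adjusted p = 0.000528, edgeR). JRE4, a regulator of steroidal glycoalkaloid synthesis, was lower (log2 fold change -0.82, adjusted p = 0.00499, edgeR). DDTFR10A and PTI4 lie close together on chromosome 5 and were lower, with log2 fold changes of -0.96 (adjusted p = 0.0142) and -0.71 (adjusted p = 0.0198, edgeR). Both calls were lost without CS2 replicate 2 or 3 or WT replicate 1 (adjusted p from 0.0516 to 0.115). Set against CS3, DDTFR10A gave a larger difference. It was at 24.1, 16.7 and 15.3 CPM in CS2, 49.7, 30.5 and 26.3 CPM in WT and 69.9, 70.3 and 112 CPM in CS3, with a log2 fold change of -2.22 between the lines (adjusted p = 0.00024, edgeR). CS2 was thus below WT and CS3 above it.

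NAM1, a NAC factor, was at 455, 316 and 246 CPM in CS2, against 119, 165 and 101 CPM in WT, and NAP2, a NAC factor linked to senescence, at 33.4, 39.2 and 31.8 CPM against 6.73, 9.65 and 6.14 CPM. Neither gene had overlapping groups. Their log2 fold changes were 1.39 (adjusted p = 2.46e-05) and 2.21 (adjusted p = 0.0007, edgeR). JA2, a NAC factor that promotes NCED1 expression in tomato guard cells, was lower (log2 fold change -0.72, adjusted p = 0.0234, edgeR), a call lost without CS2 replicate 2 or 3 or WT replicate 2 (adjusted p from 0.102 to 0.125). The 3 WRKY factors that were higher, WRKY3, WRKY31 and WRKYIId-1, had similar log2 fold changes of 0.98, 0.95 and 0.96 (adjusted p = 0.00117, 0.0022 and 0.00023, edgeR). TCP6, of a family that controls leaf growth, was at 78.9, 69.1 and 66.9 CPM in CS2, against 14.5, 17.8 and 15.4 CPM in WT, with 46.6, 36.96 and 44.7 CPM in CS3. The 3 groups did not overlap, with CS3 between the others. TCP6 was higher in CS2 than in WT by 2.17 (standard error 0.171, adjusted p = 6.71e-08) and higher than in CS3 by 0.73 (adjusted p = 0.0155, edgeR).

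Of 15 expansins and xyloglucan endotransglucosylases 6 were higher and 2 lower. The xyloglucan endotransglucosylase tXET-B1, which cuts and rejoins xyloglucan, stood at 58.8, 81.8 and 83.1 CPM in CS2, against 11.4, 8.13 and 16.2 CPM in WT. Its CS2 libraries were more than 3 times the highest WT library, and the log2 fold change was 2.64 (adjusted p = 9.01e-06, edgeR). XET4 (1.72), the expansin EXPA10 (0.87) and XTH1 (0.57) were also higher (adjusted p = 0.00659, 0.00162 and 0.00594, edgeR). The expansins EXPA4 and exp11 were lower, with log2 fold changes of -0.62 and -0.43 (adjusted p = 0.0166 and 0.0497, edgeR). EXPA4 was lost without CS2 replicate 2 or WT replicate 3 (adjusted p of 0.0565 and 0.0541), and exp11 without CS2 replicate 2 or 3 or WT replicate 1 or 2 (0.129 to 0.188). The cyclin CycA1 was at 12.7, 17.1 and 19.6 CPM against 1.03, 5.59 and 2.63 CPM (log2 fold change 2.44, adjusted p = 0.00132), and the replication clamp PCNA at 80.2, 77.9 and 71.5 CPM against 44.5, 50.3 and 29.4 CPM (0.89, adjusted p = 0.00537, edgeR). PCNA was the only called member of the dividing-cell markers summed above, and CycA1 is not one of those markers. The part of a shift in cell types was not tested.

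In the cuticle list, CER6, an enzyme that elongates fatty acids for wax, was at 374, 368 and 279 CPM in CS2, against 179, 160.5 and 143 CPM in WT. It was higher by 1.08 (adjusted p = 3.22e-05, edgeR) and takes up much of the epidermal sum. CD1, the cutin synthase, was higher by 0.68 (adjusted p = 0.00441), and CD2, a homeodomain factor of cutin formation, was lower (log2 fold change -0.55, adjusted p = 0.000826, edgeR).

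Of 16 light-harvesting and photosystem genes 1 was called with all libraries, PSBR, a subunit of photosystem II, which was higher by 0.56 (adjusted p = 0.00574, edgeR). Without CS2 replicate 3, 6 of the 16 were called, all higher, as CAB-8, CAB7, CAB9, CAB13 and PsbQ then passed the threshold too (adjusted p from 0.00409 to 0.0306, edgeR). Summed over the list, CPM was 8696, 7245 and 4759 in CS2 replicates 1 to 3, and 6462, 6270 and 5751 in WT. The CS2 sum was thus highest in the shallowest library and lowest in the deepest, replicate 3. The part of depth and of the counting limit described for MTSHP was not tested. Of 9 antioxidant enzymes, 3 were higher and none lower, beside 17.8% higher and 15.3% lower of all tested genes. The ascorbate peroxidase APX1 was at 319, 274 and 241 CPM in CS2, against 161, 168 and 135 CPM in WT, and the copper/zinc superoxide dismutase SODCC.1 at 271, 238 and 219 CPM against 161, 153 and 144 CPM. In both, every CS2 library was above every WT library. Log2 fold changes were 0.84 (adjusted p = 3.34e-05) and 0.66 (adjusted p = 0.00132, edgeR). The catalase CAT2 gave 0.41 (adjusted p = 0.0466, edgeR), with groups that overlap. Its call was lost without CS2 replicate 1 or 2 or any WT replicate (adjusted p from 0.0807 to 0.225) and in the fit of the 6 libraries alone (0.139).

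Of 14 carotenoid genes, 3 were higher, a share near the 17.8% of all tested genes. CRTISO-L1, like carotenoid isomerase, rose by 0.56 (adjusted p = 0.000449), phytoene synthase Psy1 by 0.51 (adjusted p = 0.0115) and zeaxanthin epoxidase ZEP by 0.43 (adjusted p = 0.041, edgeR). Psy1 was lost without CS2 replicate 2 (adjusted p = 0.0595), and ZEP without CS2 replicate 1 or 2 or any WT replicate (0.0681 to 0.166). Starch and sucrose genes were higher in 5 and lower in 1 of 21. The share higher was again near that of all tested genes, and the share lower was below their 15.3%. AgpL1, the large subunit of the enzyme that commits glucose to starch, was at 78.2, 73.5 and 76.8 CPM in CS2, against 25.4, 32.5 and 26.3 CPM in WT (log2 fold change 1.44, adjusted p = 5.02e-05, edgeR). The invertase LIN8 was higher by 1.26 (adjusted p = 0.00374), the hexokinase HXK4 by 0.87 (adjusted p = 0.00464), the fructokinase FRK2 by 0.45 (adjusted p = 0.039) and the granule-bound starch synthase GBSS1 by 0.42 (adjusted p = 0.0332, edgeR). GBSS1 was lost without CS2 replicate 1 or 2 or any WT replicate (adjusted p from 0.0564 to 0.131), and FRK2 without each library but WT replicate 2 (0.0555 to 0.173) and in DESeq2 (0.0708). LeSUT1, the sucrose transporter that loads the phloem, was lower, at 96.2, 90.7 and 91.9 CPM against 162, 169 and 161 CPM (log2 fold change -0.82, adjusted p = 5.67e-05, edgeR).

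Light receptors went in both directions. The phototropins PHOT1 and PHOT2, blue light receptors that also sense temperature in liverwort, were higher by 0.68 (adjusted p = 0.00251) and 0.53 (adjusted p = 0.00794, edgeR). Phytochrome PHYF and cryptochrome CRY2 were lower, with log2 fold changes of -0.60 (adjusted p = 0.00166) and -0.71 (adjusted p = 0.00147, edgeR). COP1, the ubiquitin ligase of light signalling, was higher by 0.43 (adjusted p = 0.0326, edgeR), a call lost without CS2 replicate 2 or 3 or WT replicate 1 or 2 (adjusted p from 0.056 to 0.16). Calcium sensors were likewise mixed. CaM6 rose, at 110.3, 99.5 and 99.8 CPM in CS2 against 56.9, 54.4 and 57.9 CPM in WT, and CaM5 fell, at 63.5, 58.3 and 55.9 CPM against 109.7, 136 and 100 CPM. These 2 calmodulins did not overlap between the groups, with log2 fold changes of 0.87 (adjusted p = 1.55e-05) and -0.97 (adjusted p = 0.000184, edgeR). CBL2 was higher by 1.01 (adjusted p = 0.00117), and the calcium-dependent kinases CDPK2, cpk1 and CDPK1 were lower, with log2 fold changes of -0.72, -0.70 and -0.27 (adjusted p = 0.00103, 0.000136 and 0.0411, edgeR). CDPK1 was lost in DESeq2 (adjusted p = 0.0742) and without each library but WT replicate 3 (0.0586 to 0.143).

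The remaining genes with a symbol and a large fall were of mixed function. PSK2, a precursor of the peptide hormone phytosulfokine, was at 1.34, 2.45 and 1.42 CPM in CS2, 29.5, 18.3 and 34.7 CPM in WT and 4.24, 4.24 and 4.56 CPM in CS3. It was low in both lines, with a log2 fold change of -3.97 between CS2 and WT (adjusted p = 5.36e-06, edgeR). ERABP1, an auxin-binding protein of the endoplasmic reticulum, was at 56.1, 36.8 and 40.3 CPM against 231, 217 and 189 CPM in WT and 75.7, 115 and 85.3 CPM in CS3. The 3 groups did not overlap, and CS2 was lower than WT (log2 fold change -2.28, adjusted p = 3.05e-08) and lower than CS3 (-1.07, adjusted p = 0.00191, edgeR). PSR was lower (log2 fold change -2.11, adjusted p = 5.28e-06) and again lower than in CS3 (-1.58, adjusted p = 0.00191, edgeR). A formin, formin-I2I, which organises actin, and the gene named SGT1 were lower, with log2 fold changes of -2.43 and -2.16 (adjusted p = 8.95e-05 and 1.53e-07, edgeR). The endoglucanase inhibitor Xegip, the brassinosteroid reductase det2 and the lignin enzyme CCR2, a cinnamoyl-CoA reductase, had log2 fold changes of -2.04, -1.88 and -1.80 (adjusted p = 0.000329, 0.000873 and 3.13e-06, edgeR). Linker histone H1 was lower (log2 fold change -1.40, adjusted p = 0.000472, edgeR), from 87.5, 47.5 and 45.1 CPM in CS2, against 159.9, 154 and 146 CPM in WT.

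Large rises were found for cevi16, a class III peroxidase, at 38.8, 42.1 and 35.7 CPM in CS2, against 6.21, 8.13 and 7.90 CPM in WT (log2 fold change 2.38, adjusted p = 5.02e-05, edgeR). The amino acid permease AAP1 rose by 1.77 and the ABC transporter ABCG22, which in Arabidopsis acts in guard cells, by 1.76 (adjusted p = 3.31e-05 and 7.47e-05, edgeR). BOP3, of the BLADE-ON-PETIOLE family that shapes leaf bases, was at 20.1, 20.1 and 25.8 CPM in CS2, 8.80, 6.10 and 4.83 CPM in WT and 15.3, 6.67 and 3.65 CPM in CS3. CS2 lay above both, by 1.76 against WT (adjusted p = 0.00258) and by 1.38 against CS3, which missed the threshold (adjusted p = 0.072, edgeR).

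The extremes of the whole comparison carry no symbol. Solyc03g118060.3 (chr3:63086041-63086882, minus strand) had 3, 0 and 1 counts in the CS2 libraries and 231, 213 and 239 in the WT libraries. Summed over the libraries it was 195-fold higher in WT (95% interval 75.9 to 718.3 for counting error only). CS3 was at 12.7, 32.7 and 15.5 CPM, and CS2 was lower than CS3 (adjusted p = 0.000422, edgeR). Solyc12g042830.3 (chr12:61279958-61280197, minus strand), a gene of only 240 bases, was at 2.00, 1.47 and 1.13 CPM in CS2, 134, 132 and 114 CPM in WT and 21.2, 63.02 and 26.5 CPM in CS3. Its log2 fold change was -6.43 (adjusted p = 2.27e-07, edgeR), although WT counts already filled the gene's length. Among the rises, Solyc08g013760.1 had 35, 47 and 110 counts in CS2 and 1, 0 and 0 in WT, a ratio of 168 (95% interval 29.8 to 6669, counting error only). It also differed without heat, at 37.2, 45.5 and 24.3 CPM in CS2 and 0 in every WT library at 0 h. Solyc01g098530.3 rose to 55.5, 56.4 and 48.2 CPM in CS2 from 0.517, 2.03 and 0 CPM in WT and did not differ past the threshold from CS3 (0.98, adjusted p = 0.16, edgeR).

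Without heat fewer genes differed between CS2 and WT. At 0 h, 8 genes passed the threshold, 0.0522% of those tested, with 538 at an unadjusted p under 0.05 and 25 adjusted calls in DESeq2. Of the 8, 3 were lower (Solyc06g063330.3, Solyc12g150108.1 and Solyc12g087830.2) and 5 higher (P69A, Solyc12g042430.2, Solyc09g075680.1, Solyc07g022910.3 and Solyc08g013760.1), named after their values were seen. P69A, a subtilisin-like protease induced in defence, was at 87.7, 84.1 and 101 CPM in CS2, against 50.95, 49.8 and 59.3 CPM in WT at 0 h, a log2 fold change of 0.77 (adjusted p = 0.0364, edgeR). At 1 h it was at 32.7, 37.2 and 34.6 CPM against 26.9, 19.3 and 28.1 CPM (0.49, adjusted p = 0.0272, edgeR), a call lost without CS2 replicate 2 or 3 or WT replicate 2 (adjusted p from 0.0584 to 0.135). None of the heat shock genes named above was among the 8.

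Whether CS2 differed from WT in its change from 0 h to 1 h was tested as an interaction. The change was higher in CS2 for 1594 genes (10.4%) and lower for 1432 (9.35%). The log2 change in CS2 minus that in WT was -4.13 for HSP21 (adjusted p = 0.00461), -2.09 for HSTF24 (adjusted p = 0.00432), -1.17 for HSP100/CLPB (adjusted p = 0.0132) and -2.92 for FLACCA (adjusted p = 0.000617, all from edgeR). For BiP/grp78 it was 1.08 (adjusted p = 0.00687, edgeR). For HSP17-6 the value was -1.38 and for FKBP65 -1.03, short of the threshold (adjusted p = 0.13 and 0.404, edgeR), with 0 h levels of 7.98 to 11.7 and 1.13 to 4.16 CPM in CS2. HSP17.8 and Hsp20.0 also missed it, at -1.131 and -0.98 (adjusted p = 0.166 and 0.279, edgeR). In hsc70.3 the change was larger in CS2 by 1.42 (adjusted p = 0.0392) and in MTSHP by 1.53 (adjusted p = 0.0439, edgeR). Those values come from lower 0 h levels, 14.6, 6.38 and 3.10 CPM in CS2 against 27.03, 22.4 and 29.1 CPM in WT for hsc70.3 and 8.33, 8.51 and 3.10 CPM against 20.5, 17.7 and 20.2 CPM for MTSHP. Neither gene passed the threshold at 0 h itself (adjusted p = 0.218 and 0.66, edgeR). CBF1, ERF-D3 and EREB missed the threshold of the interaction, at 4.197, 1.948 and -0.486 (adjusted p = 0.101, 0.436 and 0.635, edgeR). At 0 h the log2 fold change between CS2 and WT was 1.579 for ERF-D3 and -1.695 for EREB, neither past the threshold.

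Fewer genes were called between the lines than between CS2 and WT. At 1 h, 160 genes were higher in CS2 than in CS3 (1.04%) and 200 lower (1.31%), with 2532 genes at an unadjusted p under 0.05. The total of 360 fell to 92 without CS2 replicate 2, 104 without CS2 replicate 3, 107 without CS3 replicate 2 and 168 without CS3 replicate 3, and rose to 517 without CS2 replicate 1. Heat shock genes stood among those lower in CS2. HSP21, HSP17-6, HSP17.8, HSTF24, HSP100/CLPB, FKBP65, FKBP42 and ftsH6 passed the threshold with the values given above. Against WT the same genes in CS3 gave -0.90, -0.12, -0.12, -0.35, -0.14, -0.01, -0.28 and -0.74 on the log2 scale, none past the threshold (adjusted p from 0.0592 to 0.986, edgeR). The highest counts of HSP21, HSP17-6, HSP17.8, HSP100/CLPB and ftsH6, all in WT, were 0.688, 0.699, 0.912, 0.368 and 0.589 of the gene's length, and the part of the ceiling in these values was not tested. HSFA3 and FLACCA were lower in CS3 than in WT, at log2 fold changes of -1.08 and -1.99 (adjusted p = 0.00193 and 0.000415, edgeR). CBF1, IAA2, tXET-B1 and cevi16 stood higher in CS3 than in WT by 3.92, 2.21, 2.82 and 2.85 (adjusted p up to 1.69e-05, edgeR). Both lines are set against the same 3 WT libraries in these values. When CS2 replicate 3 was left out, the differences between CS2 and CS3 had adjusted p-values of 0.0106 for HSP21, 0.0239 for HSTF24, 0.0246 for ERABP1, 0.0223 for PSR, 0.00659 for DDTFR10A, 0.021 for Solyc09g074475.1 and 0.0125 for Solyc03g118060.3, while HSP17-6, HSP17.8, HSP100/CLPB, FKBP65, FKBP42, ftsH6, GA20OX1 and TCP6 lost the threshold (0.0536 to 0.121, edgeR).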

How the data were processed

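RNA from the fourth leaf was sequenced in 18 libraries (WT, CS2 and CS3 at 0 h and 1 h, 3 each) as single-end reads from a stranded kit. The deposited values are whole-number counts per gene span made by the authors with featureCounts on strand-matched reads. Reads were trimmed with Trimmomatic 0.38 and aligned to the M82 V1.0 assembly. The methods name STAR, whereas the file headers and processing notes name Bowtie2 2.3.5, so the aligner is not settled. Alignments of low mapping quality and PCR duplicates were removed (SAMtools 1.9 in the processing notes). In single-end data this caps a gene's count near the length of its span or below it.

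Genes that reached 50 counts in 2 or more libraries (15312 of 35821) were tested with edgeR 4.0.16 (R 4.3.3, limma 3.58.1). The quasi-likelihood test used TMM factors and 1 fit of all 18 libraries in 6 conditions (common dispersion 0.0223), with Benjamini-Hochberg adjustment over all tested genes and a threshold of 0.05. DESeq2 1.42.0, the tool of the study, was an alternative, with other scalings, filters, library sets, the replicate block and each library left out. The edgeR script was tested on simulated counts. Library groups came from the sample labels. Standard errors are on the log2 scale.

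Symbols are those of RefSeq (SLM_r2.1), paired with the table's genes by the order, spacing and length of neighbouring genes. Of 35479 nuclear genes 14814 were paired, 1353 with a symbol. The same procedure on wrong chromosomes paired 57. A symbol can therefore be wrong, and most genes carry none. Near-identical copies share reads and are uncertain. Text names come from a rule: HSFA1a and genes the study names by identifier, then the 15 largest falls and rises among called genes with a symbol, at least 10 CPM in the higher group and CS2 libraries outside the WT range with and without replicate 3 (and the first 2 each way without a symbol), then up to 4 genes of each of 43 lists. Further list members were named after their values were seen. Members and lists were chosen with earlier results of these data known.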

Additional observations from a re-analysis of the deposited data

Results flagged for a closer look

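A test of the interaction of line and heat singled out results whose change from 0 h to 1 h differed between CS2 and WT, at an adjusted p under 0.05 in edgeR. Over all tested genes the change was higher in CS2 for 1594 genes and lower for 1432. Each value below is the log2 change in CS2 minus the log2 change in WT for a gene named by rule. Many of these genes were named for a large difference at 1 h, which is itself part of this contrast.

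Lower changes were found for heat shock genes and their companions, -4.13 for HSP21, -2.09 for HSTF24, -1.89 for ftsH6 and -2.08 for Solyc01g091270.3. Genes of hormones and growth with lower changes were PSK2 (-4.14), FLACCA (-2.92), ERABP1 (-2.01) and det2 (-2.34). The others were Xegip (-3.00), formin-I2I (-2.64), SGT1 (-2.33), CCR2 (-1.73) and Solyc12g042830.3 (-6.75).

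Higher changes were found for the auxin genes IAA2 (1.90), FZY4 (1.59) and FZY6 (2.35), and for the regulators TCP6 (2.19) and ERF-B13 (1.91). Further values were 2.31 for the wall enzyme tXET-B1, 2.70 for the cyclin CycA1, 1.67 for AAP1, 2.10 for ABCG22 and 5.66 for Solyc01g098530.3. HSFA1a (HSFA1A) itself gave 0.73, Solyc06g076510.3 gave 0.86 and hsc70.3 gave 1.42. The counts of hsc70.3 were near the ceiling set by duplicate removal at 1 h, and the part of this limit in its value was not tested.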

How the results depend on the processing

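The counts of genes higher (2729) and lower (2345) in CS2 at 1 h stayed within 1.5 times under every scaling, filter, library set and left-out library tried. DESeq2 called 2677 and 2245, library size alone 2607 and 2348, and upper-quartile factors 2823 and 2251. The 6 libraries alone gave 2741 and 2847. With the replicate number as a block they gave 2772 and 2980. Samples with the same number were not paired, since their deviations correlated at 0.00366, -0.0383 and 0.234. With edgeR's own filter 2862 and 2815 genes were called, and with no filter 2839 and 2776. Leaving out the 1069 genes near the ceiling of duplicate removal gave 2534 and 2236. Without single libraries the ranges were 2039 to 2348 and 1738 to 2179. At 0 h they were 4 to 8, for CS2 against CS3 92 to 517 and for the interaction 2176 to 3005. Asking for a change of at least 1 on the log2 scale left 209 higher and 200 lower genes at 1 h, 5 at 0 h, 14 between CS2 and CS3 and 167 in the interaction, fewer by construction. DESeq2 called 25 genes at 0 h and edgeR with no filter 35, and the cause was not tested.

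Values near 0 changed sign for a few genes. MTSHP became -0.034 with edgeR's filter, -0.031 with library size alone, -0.039 with no filter, -0.033 in the 6 libraries and -0.089 with the block. In the same order HSC80 became -0.027, -0.017, -0.031, -0.026 and -0.049, and Hsc70.2 became -0.014, -0.006, -0.018, -0.012 and -0.039. Without single libraries MTSHP ranged from -0.293 to 0.255, HSC80 from -0.181 to 0.178, Hsc70.2 from -0.236 to 0.222, Hsc70.1 from -0.192 to 0.339, ER24 from -0.420 to 0.184 and Solyc01g091260.3 from -0.113 to 0.294. The lowest value of each came without CS2 replicate 1 and the highest without CS2 replicate 3. None of these passed the threshold, and the cause was not tested.

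Over all named genes and alternatives, 1623 values kept direction and side of the threshold, 132 lost the threshold, 5 passed it newly and 26 changed sign. Of the counts in lists, 522 stayed within 1.5 times and 54 moved further, 21 of 96 under the stricter gene match, 19 without CS2 replicate 3, 11 in the 6 libraries alone and 3 with library size alone. A search of promoters for heat shock elements, planned at the outset, was not run. Depth and duplicate removal limit what can be seen in highly expressed genes, and 3 libraries a group limit small changes.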
